A study of Mus musculus with 4 samples.

Results

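The vitamin D receptor and the genes around it were followed in neonatal mouse testis exposed to WIN 18,446, a bisdichloroacetyldiamine that inhibits the retinaldehyde dehydrogenases and so blocks the synthesis of retinoic acid. The members are 7 genes, Vdr, Cyp24a1, Cyp27b1, Cyp27a1, Cyp2r1, Trpv6 and Calb1, out of 18193 with a probe set of their own in the array annotation. They are represented by all 13 probe sets paired with 1 of these symbols alone, out of 45101 on the array. The 4 samples were whole testes of strain 129 mice at 2 days post partum (dpp), kept for 24 h as organ culture in medium with fetal bovine serum. The WIN 18,446 group (2 arrays) received the compound at 1 µM, and the control group (2 arrays) received the vehicle, dimethyl sulfoxide (DMSO). Total RNA was measured on Affymetrix Mouse Genome 430 2.0 arrays. The serum in the medium of both groups can carry vitamin D metabolites, whose amounts are not given in the sources used here. Nothing in the labels says that replicates were separate animals or cultures, so every p-value reflects only the spread of these arrays, which may be technical.

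Vitamin D works as a hormone after a pair of hydroxylations. Cyp2r1 and Cyp27a1 add the first hydroxyl group, Cyp27b1 adds the second and makes calcitriol, the active form, and Cyp24a1 breaks calcitriol down. Calcitriol binds Vdr, a nuclear receptor that pairs on DNA with a retinoid X receptor, the same partner that the retinoic acid receptors use. Cyp24a1, the calcium channel Trpv6 and the calcium buffer calbindin (Calb1) are classical targets of the receptor in kidney and gut. The receptor and several of these enzymes have been reported in the testis of humans and rodents.

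Values are log2 levels as the authors normalized them, and differences are WIN 18,446 minus control, so that 1 unit is a doubling. The members were chosen by their level and difference in this same contrast, led by Vdr. Their levels and differences are therefore a description, with the standard error (SE) of the fit and with no p. The lowest levels pile up near 2, and the highest value of the 27 bacterial control probe sets, which match no mouse transcript, was 2.22. A value at or below 2.22 is called background here. A probe set was tested where its mean over the 4 arrays was at least 5. With only 2 arrays a group, precision is limited throughout.

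Vdr was far lower in the testes with WIN 18,446. Its brighter probe set, 1418176_at, read 6.88 and 5.90 on the WIN 18,446 arrays, against 11.38 and 11.09 on the control arrays. Both treated arrays lay well below both control arrays, and still above background. The group means were 6.39 ± 0.69 with WIN 18,446 and 11.24 ± 0.21 in control (SD, n = 2 each), a difference of -4.84 (SE 0.35), which is 28.7-fold lower. Ordered from the most negative difference, this probe set ranked 11 among the 20895 probe sets tested, and Vdr ranked 8 among 10970 genes taken by their brightest probe sets.

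The other Vdr probe set, 1418175_at, gave the same direction. It read 3.25 and 4.51 on the WIN 18,446 arrays, against 7.36 and 7.13 on the control arrays, again without overlap. The means were 3.88 ± 0.89 with WIN 18,446 and 7.24 ± 0.16 in control (SD, n = 2 each), and the difference was -3.36 (SE 0.45), or 10.3-fold lower. The treated arrays were in opposite order on the 2 probe sets: WIN 18,446 array 1 was the higher on 1418176_at and the lower on 1418175_at. Without WIN 18,446 array 1 the fold of 1418175_at was 6.65, and without WIN 18,446 array 2 it was 15.9. This probe set passed the level filter through the control arrays alone, since both treated values were under 5. The annotation gives the 2 probe sets 1 shared source sequence, so they are not independent measures of the gene.

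Of the 13 member probe sets, 3 were tested, and limma called 2 of them at an adjusted p under 0.05, both of them Vdr and both lower. Over the whole array 5.18% of the probe sets tested were called, and 2.91% were called lower. Because this contrast chose the genes, nothing is read from the count. Both Vdr calls were lost without control array 1 and without control array 2, where limma called 0 probe sets of the whole array, and every other call given here with them. Both were also lost with no level filter, and that of 1418175_at with no variance trend. Fewer cells that carry a transcript and less of it per cell cannot be told apart in whole testis RNA.

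**Figure D1:**
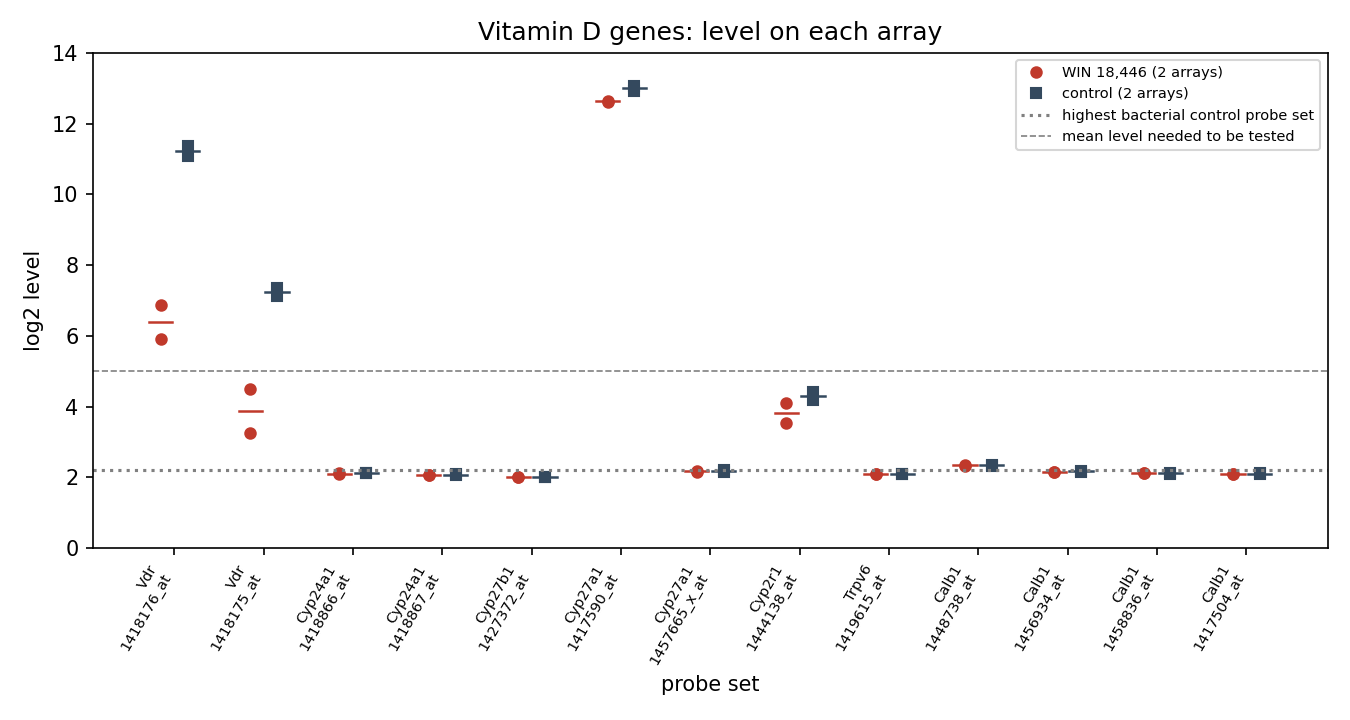
Log2 level (vertical axis) of each of the 13 probe sets of the 7 vitamin D genes on every array, with WIN 18,446 as circles and control as squares, and short bars for the group means (n = 2 each). Both Vdr probe sets have their treated arrays far below their control arrays, Cyp27a1 is high in both groups, and 9 probe sets lie flat between 2.01 and 2.36, near the dotted line at 2.22.

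The promoter windows of the 2 genes with a tested probe set are shown because they are where a receptor of this class would have to bind close to the start site. RefSeq promoters of build GRCm38.p6 run from 250 bases before to 50 after the annotated start, and 5 of the 7 genes were matched. The window of Vdr is chr15:97908247-97908546 on the minus strand, and that of Cyp27a1 is chr1:74713285-74713584 on the plus strand. Capitals mark the half-site AGGTCA, to which nuclear receptors of this class bind, its variant AGTTCA, the variant written GGGTCA, the last variant searched, which is GGTTCA, and GGGCGG, the core of the box bound by Sp1, on either strand.
Vdr: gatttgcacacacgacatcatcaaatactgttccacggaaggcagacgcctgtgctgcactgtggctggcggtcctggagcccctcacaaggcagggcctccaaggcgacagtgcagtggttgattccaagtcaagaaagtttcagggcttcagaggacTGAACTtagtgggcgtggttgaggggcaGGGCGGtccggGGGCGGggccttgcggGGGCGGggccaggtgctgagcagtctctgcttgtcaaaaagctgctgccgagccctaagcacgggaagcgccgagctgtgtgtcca
Cyp27a1: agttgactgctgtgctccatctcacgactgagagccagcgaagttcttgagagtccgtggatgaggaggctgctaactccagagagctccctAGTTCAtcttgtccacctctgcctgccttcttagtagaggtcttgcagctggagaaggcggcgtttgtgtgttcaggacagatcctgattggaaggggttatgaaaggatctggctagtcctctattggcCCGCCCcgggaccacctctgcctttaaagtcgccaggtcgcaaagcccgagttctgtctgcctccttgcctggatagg
Direct repeats of these half-sites spaced by 3 bases, the vitamin D receptor type, were found in 0 of the 5 windows, and repeats spaced by 5 bases, a retinoic acid receptor type, also in 0. Among all 32851 promoter windows the shares were 0.0396% and 0.0974%. The Vdr window holds 1 single half-site, 91 bases before the start on the opposite strand, and that of Cyp27a1 holds 1, 158 bases before the start. At least 1 half-site stands in 43.7% of all windows. The Vdr window holds GGGCGG 3 times, at 63, 52 and 36 bases before the start, a number that 10.7% of all windows reach. The Cyp27a1 window holds it 1 time, 28 bases before the start on the opposite strand. No marked half-site overlaps a marked GGGCGG in these windows. GGGCGG was added to the search after the Vdr window had been seen. These matches describe letters and not binding.

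Among the activating enzymes, only Cyp27a1 had a probe set clear of background in both groups and above the level filter. This mitochondrial enzyme also oxidises the side chain of cholesterol in bile acid synthesis. Probe set 1417590_at read 12.65 and 12.61 on the WIN 18,446 arrays, against 13.08 and 12.93 on the control arrays. The groups did not overlap, but they lay close together. The means were 12.63 ± 0.02 with WIN 18,446 and 13.01 ± 0.10 in control (SD, n = 2 each), a difference of -0.38 (SE 0.08), and limma did not call it. Over the array, 53.1% of the probe sets tested had groups without overlap. A second Cyp27a1 probe set, 1457665_x_at, disagreed in level: it read 2.16 and 2.17 with WIN 18,446, against 2.20 and 2.16 in control, which is background.

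Cyp2r1, an enzyme of the first hydroxylation, read low, with no second probe set to compare. Its only probe set, 1444138_at, read 3.53 and 4.10 on the WIN 18,446 arrays, against 4.40 and 4.19 on the control arrays. All 4 values were above background, and both treated values were below both control values by a small margin. The difference of -0.48 was -0.19 without WIN 18,446 array 1 and -0.76 without WIN 18,446 array 2, and the probe set was not tested. Cyp27b1, the kidney enzyme that makes calcitriol, was at background on every array, with 2.01 and 2.01 with WIN 18,446 against 2.02 and 2.01 in control.

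The classical targets Cyp24a1 and Trpv6 stood at background, both where Vdr was high and where it was low. Cyp24a1, the enzyme that clears calcitriol and the gene most often used as a readout of receptor activity, read 2.10 and 2.11 with WIN 18,446 and 2.13 and 2.11 in control on probe set 1418866_at. Its other probe set, 1418867_at, read 2.06 and 2.07 with WIN 18,446, against 2.08 and 2.06 in control. Trpv6 read 2.09 and 2.09 with WIN 18,446, against 2.10 and 2.09 in control. No array of either group therefore shows a measurable Cyp24a1 or Trpv6 signal.

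Calb1 has 4 probe sets, of which 3 were at background on all arrays. The fourth, 1448738_at, read 2.33 and 2.34 with WIN 18,446 and 2.36 and 2.33 in control, just above 2.22, and spanned only 0.031 log2 units over the 4 arrays. In all, 9 of the 13 probe sets were flat, with less than 0.1 log2 units between their highest and lowest array, and these cover every probe set of 4 genes. Their differences ran from -0.022 to -0.003, all 9 lower with WIN 18,446. The same held for all 27 bacterial control probe sets, at -0.019 to -0.003. Control array 1 was the highest in all 9 and in all 27. Probe sets with no mouse target thus had the same sign and size of difference, and no direction is read for Cyp24a1, Cyp27b1, Trpv6 or Calb1.

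**Figure D2:**
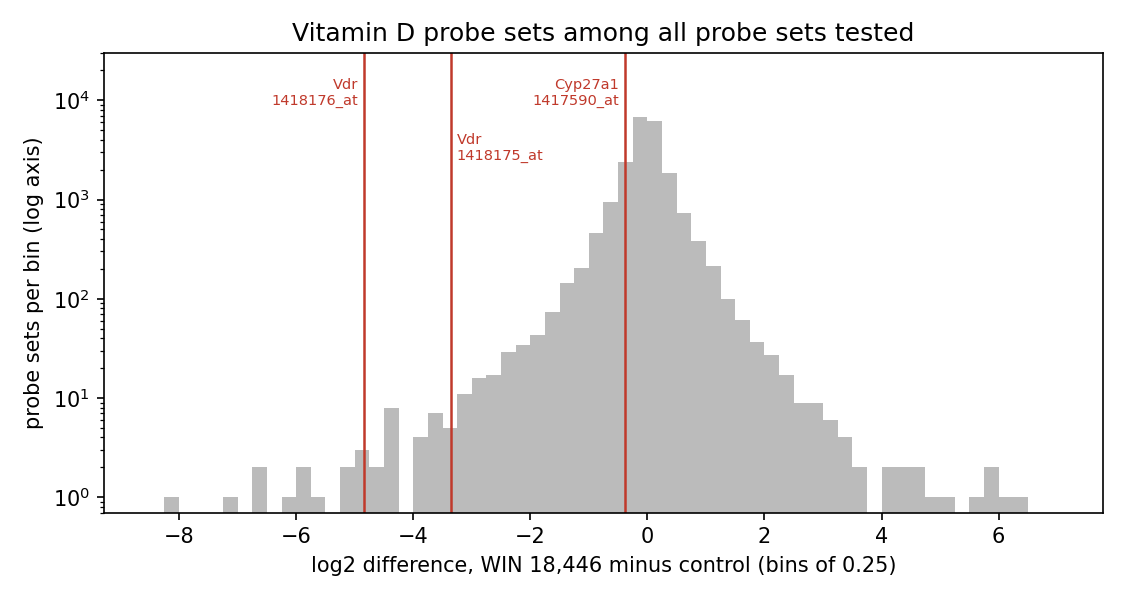
Distribution of the log2 difference, WIN 18,446 minus control, over the 20895 probe sets tested, in bins of 0.25 with a log vertical axis. Red lines mark the 3 member probe sets tested: Vdr at -4.84 and -3.36, in the sparse lower tail, and Cyp27a1 at -0.38, beside the bulk.

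The other genes of the pathway were taken from 4 lists of 60 genes in all, of which 48 have a probe set with 1 symbol and 31 were tested, each by its brightest probe set. Limma called 0 of these 31, while 10 had an unadjusted p under 0.05, and the median difference was 0.03. Over all 10970 genes tested in this way 6.4% were called, 25.0% had an unadjusted p under 0.05 and the median difference was -0.02. The differences of 27 of the 31 were smaller than 0.5 log2 units in size.

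The DNA partners of the receptor were not called. Rxra, the retinoid X receptor found in most tissues, read 11.68 and 11.44 with WIN 18,446, against 11.12 and 11.56 in control, with overlapping groups (adjusted p = 0.544). Rxrb read 12.09 and 11.88 with WIN 18,446, against 11.81 and 11.77 in control (difference 0.20, SE 0.10, adjusted p = 0.328). Rxrg, the form best known from muscle and brain, was at background on all 4 arrays. The partner transcripts were thus present in both groups.

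Of the 12 receptor partners and coregulators tested, limma called 0, and 4 had an unadjusted p under 0.05, against 25.0% of all genes tested. The 4 of smallest p were the coactivator Ncoa2 (difference -0.38, adjusted p = 0.0576), the chromatin factor Baz1b (0.27, adjusted p = 0.0882), the coactivator Ncoa3 (-0.30, adjusted p = 0.149) and Pdia3, a disulfide isomerase also proposed as a membrane binder of calcitriol (0.20, adjusted p = 0.173). The list median was 0.06. Other probe sets were called for 2 genes, where 5.18% of all probe sets tested were called. How many other probe sets of this list were tested is not given here, so nothing is read from that count. A second probe set of Ncoa2 fell, with 11.70 and 11.65 with WIN 18,446 against 12.34 and 12.26 in control (-0.62, adjusted p = 0.0253). A second one of Med1, a Mediator subunit that Vdr contacts, rose (0.99, adjusted p = 0.0419). It read 10.86 and 11.08 with WIN 18,446, against 9.81 and 10.16 in control. The brightest Med1 probe set differed by 0.02, and the 3 others tested ran from -0.25 to 0.99.

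In the list of uptake and electron transfer, 5 of 8 genes on the array were tested, 0 were called and 2 had an unadjusted p under 0.05, again against 25.0% of all genes tested. All 5 had negative differences without overlap between groups, and their median was -0.19. Of all probe sets tested, 53.1% had no overlap, but that share counts both directions and probe sets rather than genes. The share of genes lower without overlap is not given here, so nothing is read from the shared direction. Adrenodoxin (Fdx1), which passes electrons to mitochondrial P450 enzymes such as Cyp27a1, read 11.94 and 12.02 with WIN 18,446, against 12.37 and 12.28 in control (-0.34, adjusted p = 0.088). Cyp11a1, the side chain cleavage enzyme of steroid synthesis, which fed by the same donor can also hydroxylate vitamin D, differed by -0.32 (adjusted p = 0.195). Lrpap1, the chaperone of megalin, differed by -0.19 (adjusted p = 0.273), and Dhcr7, which diverts the vitamin D precursor into cholesterol, by -0.10 (adjusted p = 0.443). Megalin itself (Lrp2), the uptake receptor of vitamin D in kidney, was at background on all arrays.

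Among the genes of calcium and phosphate handling, 5 of 14 on the array were tested, limma called 0, and 0 had an unadjusted p under 0.05. Over all genes tested the shares were 6.4% and 25.0%, so with 5 genes nothing is read from these counts. The parathyroid hormone receptor Pth1r read 8.80 and 8.74 with WIN 18,446, against 9.04 and 9.38 in control (-0.44, adjusted p = 0.241). The phosphate transporters Slc20a2 and Slc20a1 differed by -0.17 and 0.13, and the calcium pump Atp2b1 by 0.10 (adjusted p = 0.382 to 0.591). The list median was -0.17. The calbindin relatives S100g and Calb2, the Fgf23 coreceptor Kl, and Casr, Pth, Fgf23 and Slc34a1 were at background on every array.

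Known targets of the receptor in bone, gut, kidney or immune cells were not called either: 0 of 9 tested, with 4 at an unadjusted p under 0.05, against 25.0% of all genes tested, and a list median of 0.10. Those of smallest p did not share a direction. Cdkn1a, an inhibitor of cyclin-dependent kinases that p53 also induces, read 8.96 and 8.93 with WIN 18,446, against 8.04 and 8.16 in control (0.85, adjusted p = 0.0531). Alkaline phosphatase (Alpl), in testis also an enzyme of fetal germ cells, read 11.61 and 11.84 with WIN 18,446, against 10.35 and 10.94 in control (1.07, adjusted p = 0.0603). Both values lie close to the threshold, and other settings of the fit called these genes. Thrombomodulin (Thbd) differed by 0.28 (adjusted p = 0.178), and the sugar phosphate transporter Slc37a2 by -0.68 (adjusted p = 0.183). A p that misses the threshold does not show that these genes were equal in the groups.

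**Figure D3:**
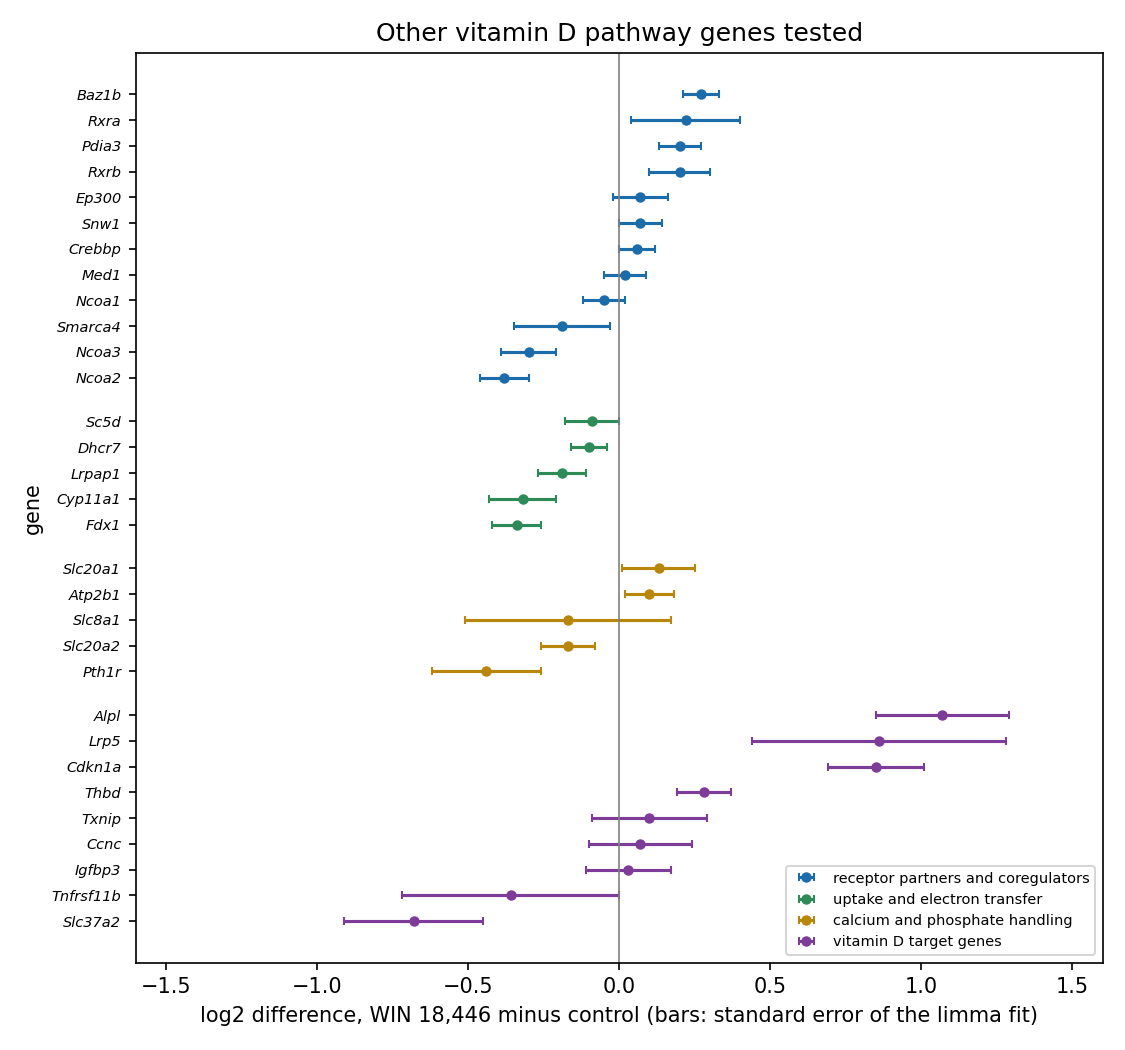
Log2 difference, WIN 18,446 minus control, of the 31 other vitamin D pathway genes tested, by list, with bars for the SE of the fit. All points lie between -0.68 and 1.07, 0 of them were called, and Cdkn1a, Alpl, Lrp5 and Slc37a2 lie farthest from 0.

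Genes of the retinoic acid response were read in the same arrays. They are a description and not a check of the treatment, since the list was chosen with earlier results known. Stra8, a germ cell gene of meiotic entry that depends on retinoic acid, was at background with WIN 18,446, at 2.03 and 2.04, against 7.02 and 6.42 in control. That is at least 22.7-fold lower, taking 2.22 as the treated level. Of 3 tested genes of the retinoic acid response, Stra6 and Dhrs3 fell (-1.84 and -1.36, adjusted p = 0.0192 and 0.0135) and Cyp26b1 was not called (-0.24, adjusted p = 0.479). Among all genes tested by their brightest probe sets, limma called 6.4%, and 3.46% were called lower. Of the 4 not tested, Stra8 is given above and Rarb was at background on all arrays. Cyp26a1 read 1.97 to 2.24 and Crabp2 2.81 to 3.04 over the 4 arrays, close to background in both groups. Array medians were 3.83 and 3.72 with WIN 18,446 and 3.72 and 3.76 in control. WIN 18,446 array 1 stood apart in 18S ribosomal RNA, whose 5′ control probe set read 6.55 there against 8.12 to 8.67 on the other arrays. Without it the Vdr difference was -5.33, and without WIN 18,446 array 2 it was -4.35.

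Markers of several testis cell types differed in the same arrays as Vdr. Over all genes tested 6.4% were called and 3.46% were called lower, the background for the counts that follow. Of 9 tested Sertoli cell markers 5 were called lower, Sox9, Cldn11, Wt1, Dhh and Cst9 (-0.27 to -1.25), and none was called higher. Amh was higher by 1.25, close to the threshold of limma (adjusted p = 0.0575). The mean log2 level over that list was 12.57 and 12.53 on the WIN 18,446 arrays, against 12.84 and 12.84 on the control arrays. Of 4 tested endothelial markers limma called Robo4 alone (-1.01), and Tek (-1.17) was close to the threshold (adjusted p = 0.0509). All 4 were lower, from -1.17 to -0.66, each at an unadjusted p under 0.05, against 25.0% of all genes tested in either direction. Endothelial list means were 7.51 and 7.46 with WIN 18,446 against 8.32 and 8.52 in control. Of 6 peritubular and stromal markers Des and Ogn fell, with list means of 11.63 and 11.57 with WIN 18,446 against 12.01 and 12.09 in control. Of 6 germ cell markers Sall4 alone was called, and lower (-0.60). The 5 not called went the other way, from 0.02 for Mael to 0.29 for Dazl, and the list median was 0.21. Germ cell list means were 11.80 and 11.82 with WIN 18,446 and 11.75 and 11.74 in control.

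Of 4 Leydig cell, 2 macrophage and 5 epididymal or mesonephric markers tested, limma called 0, with 2, 0 and 0 at an unadjusted p under 0.05, against 25.0% of all genes tested. Their list means were 11.74 and 11.46 with WIN 18,446 against 12.15 and 11.77 in control for Leydig cells, 6.54 and 7.52 with WIN 18,446 against 6.87 and 7.29 in control for macrophages, and 8.94 and 9.08 with WIN 18,446 against 8.76 and 8.94 in control for the epithelium. Dppa3, Cnn1, C1qa, Fcgr1 and Cdh16 were at background on all arrays. Sertoli, germ and Leydig cell markers were clearly present, as the labelled tissue implies. The part of these cell types in the Vdr difference was not tested.

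The genes nearest to Vdr in their pattern over the arrays were sought among 10969 other genes. Levels of each gene were centred on its mean over the 4 arrays and set against those of 1418176_at by Euclidean distance in log2 units. Esyt3, an extended synaptotagmin, was nearest, at 0.21, and read 7.31 and 6.14 with WIN 18,446, against 11.51 and 11.39 in control. Fstl3, a secreted binder of activin, followed at 0.53, then Hhatl, a relative of hedgehog acyltransferase, at 0.61, the serine protease Prss12 at 0.68 and Cuedc1 at 0.71. Differences of these 5 genes ran from -5.23 for Fstl3 to -4.31 for Cuedc1. All 5 were lower on WIN 18,446 array 2 than on array 1, as 1418176_at was, an order that the choice by distance itself favours. Hhatl and Prss12 passed the level filter through their control arrays alone. The other Vdr probe set, 1418175_at, stood at a distance of 2.17. Over 4 arrays in 2 groups, likeness of this kind mainly selects genes with a difference of the same size.

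**Figure D4:**
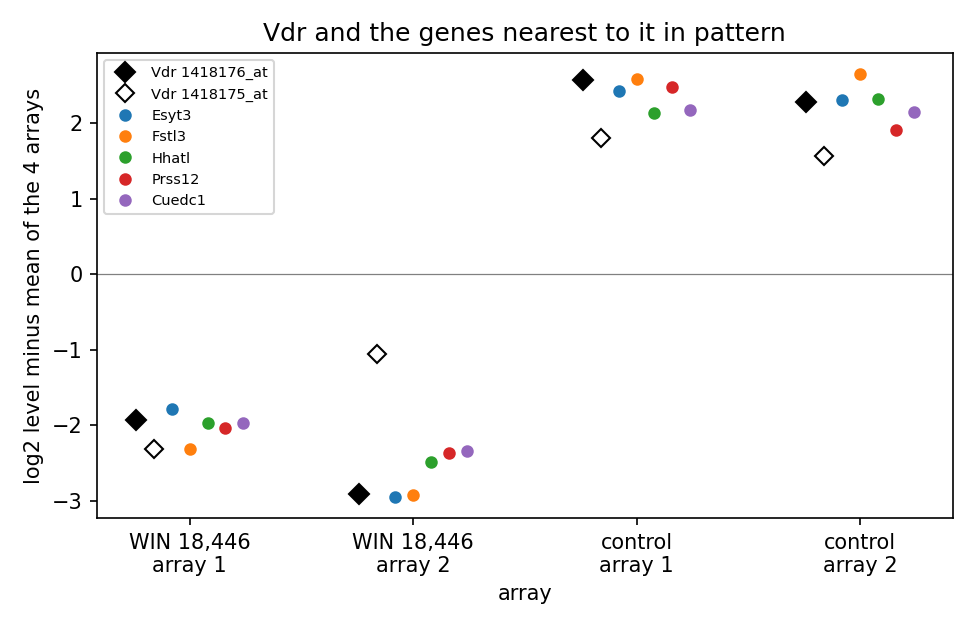
Log2 level minus the mean of the 4 arrays (vertical axis) on each array, for the 2 Vdr probe sets (diamonds) and the 5 genes nearest to 1418176_at (circles). All lie below 0 on the WIN 18,446 arrays and above 0 on the control arrays, and 1418175_at departs from the others on WIN 18,446 array 2.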

How the data were processed

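The deposited table holds 1 log2 level per probe set and array, which the authors had corrected for background, normalized and summarised. Per the submitters' processing notes, RMA or GCRMA was used, and which one gave these values is not stated. Arrays were grouped by the sample titles. After 64 control probe sets were left out, 20895 of 45037 probe sets (46.4%) had a mean level of at least 5 and were tested with limma 3.58.1 in R 4.3.3 (lmFit, eBayes with a variance trend, two-sided, Benjamini-Hochberg over all tested). Signal against background, not depth, limits the low probe sets. An exact permutation test over 2 against 2 arrays cannot go below 0.333, so none is given. The fit was also run on data simulated with normal noise from its own variances. Such data cannot speak to how these replicates were made, and nothing is read from that run.

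Genes outside the members are represented by their brightest probe set. The members and the lists were chosen with earlier results of these data known. Named are all members, the called genes of each pathway list or else the 4 of smallest p, and the 5 genes nearest to Vdr. The Rxr genes, genes at background, marker genes, second probe sets and genes in the closing section were chosen after their values were seen. Same-numbered arrays did not deviate together (correlation of deviations 0.014 over the probe sets tested), and the labels tie no number to a shared batch. Alternatives were other level filters, normalizations, moderation, thresholds, the replicate block and each array left out.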

Additional observations from a re-analysis of the deposited data

How the results depend on the processing

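Under the 7 alternatives run, the Vdr difference of -4.84 ran from -5.33 to -4.35 with single arrays left out. It was -4.78 after quantile normalization again, -4.88 with equal array medians, and -4.84 with the replicate number as a block. Its sign could hardly change, since both treated arrays lay far below both control arrays. A block over equal groups leaves the difference of means as it is. No support is drawn from the kept sign. Of 63 values of the flat probe sets under these alternatives, 10 changed sign. The number of probe sets called depended on the settings: 1083 as reported, 3 with no level filter, 372 with no variance trend, 2216 at an adjusted p under 0.10, 1467 with the replicate block, and 0 to 1398 with single arrays left out. It was 0 without control array 1 (2455 at an unadjusted p under 0.05) and 0 without control array 2 (2820), and 664 without WIN 18,446 array 1. With an array left out, the spread of the other group stands in for that of the lone array. Of the receptor partners and coregulators, 1 was called (Ncoa2) with a mean level of at least 7 or with a gene's probe sets averaged, against 0 as reported. Of the vitamin D target genes, 2 were called (Cdkn1a and Alpl) with a mean level of at least 7, after quantile normalization again or with a gene's probe sets averaged, and 1 (Alpl) with robust moderation, equal array medians or the replicate block, against 0 as reported. Of the retinoic acid response genes, 2 were called as reported, 0 with no level filter, and 0 to 2 with single arrays left out, 0 being without either control array. The uptake and the calcium lists had 0 calls in every alternative. The cause of these changes was not tested.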

Other observations

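Pathway genes that fell under the level filter, and so were not tested, included some with separate groups. Atp2b4, a plasma membrane calcium pump, read 4.13 and 4.75 with WIN 18,446, against 5.35 and 5.65 in control, and its mean of 4.97 lay just under the filter. Cd14, a myeloid surface receptor that calcitriol induces in human monocytes, read 2.09 and 2.49 with WIN 18,446, against 3.45 and 4.06 in control. Cubilin (Cubn), the partner of megalin in vitamin D uptake, read 2.65 and 2.66 with WIN 18,446, against 3.88 and 2.67 in control, so that 1 control array set its difference. At such low levels a single array can stand apart by over 1 log2 unit, as control array 1 did for Cubn.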
